A study of Homo sapiens with 12 samples.

Results

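The 50 genes described here encode kinases, kinetochore proteins, spindle motors and other proteins that carry a cell through mitosis, together with the transcription factors FOXM1 and MYBL2. They were chosen by symbol as genes of mitosis, with earlier results of these data known. Every one was found among the 58174 genes of the expression tables of U87 and U118, which are glioblastoma lines. All 50 passed the filter on low values in each comparison. Glioblastoma is a malignant brain tumour, and both lines are established cultures that stand for 1 tumour each. Per the study's methods, cells that carried neither of the surface markers CD133 and CD15 were sorted from each line and kept in medium with serum and BMP2. The sensitive group is these control cells. The resistant group is the cell aggregations that formed after weeks of exposure to temozolomide (TMZ), an alkylating drug, at 50 μM. Each of the 4 groups had 3 mRNA-seq libraries, 12 in all. Nothing states that the 3 libraries of a group came from separate cultures, so the p-values measure only the spread between these libraries, which may be technical.

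Mitosis is driven by CDK1 bound to its cyclins, with the Aurora and Polo-like kinases acting at centrosomes, centromeres and the spindle. Kinetochores built on centromeric chromatin attach chromosomes to microtubules, and a checkpoint holds back the anaphase-promoting complex, a ubiquitin ligase, until all are attached. That ligase, with CDC20 and UBE2C, then marks securin and cyclin B for destruction, kinesins and PRC1 organise the spindle midzone, and the cell divides. Most of these genes are transcribed in G2 phase by the MuvB complex with MYBL2 and FOXM1, through CHR and CCAAT elements in their promoters.

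Promoter sequence was compared first. RefSeq windows on GRCh38.p14 were found for 43 of the 50 genes. No window was given for AURKA, BIRC5, BUB3, TTK, UBE2C, TPX2 and FOXM1. In the 250 bases before the transcription start, a CHR element (TTTGAA or TTCGAA, read on both strands) stood in 21 of 43 genes (48.8%), against 15.6% of the 15842 protein-coding genes with such a window. A CCAAT box (CCAAT on either strand) stood in 33 (76.7%), against 40.2%, and 23 (53.5%) held 2 or more, against 13.7%. Both elements together stood in 18 (41.9%), against 7.64%. An E2F site written as TTTCGCGC or TTTGGCGC stood in 3 (6.98%), against 1.69%. Neighbouring matches may share bases, and a match is only a description of the letters.

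Of these windows, 6 are printed because they cover the range of the results below. ASPM had the largest fall in U87, CDC20 was among the most abundant genes, KIF11 stands for the kinesins, TOP2A and MYBL2 had a called difference between the lines, and SPC24 was called in neither. Each stretch is the longest run of the 250 bases outside every annotated exon, 5′ to 3′ along the gene, with CHR elements and CCAAT boxes in capitals. The stretches are ASPM at chr1:197146695-197146919 (- strand), CDC20 at chr1:43358731-43358954 (+ strand), KIF11 at chr10:92592880-92593129 (+ strand), TOP2A at chr17:40417951-40418146 (- strand), SPC24 at chr19:11155809-11156032 (- strand) and MYBL2 at chr20:43666864-43667018 (+ strand).
ASPM: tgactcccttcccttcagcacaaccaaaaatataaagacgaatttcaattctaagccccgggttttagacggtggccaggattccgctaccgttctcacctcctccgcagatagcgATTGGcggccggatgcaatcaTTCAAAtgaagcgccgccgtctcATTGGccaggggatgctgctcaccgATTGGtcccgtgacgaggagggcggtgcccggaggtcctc
CDC20: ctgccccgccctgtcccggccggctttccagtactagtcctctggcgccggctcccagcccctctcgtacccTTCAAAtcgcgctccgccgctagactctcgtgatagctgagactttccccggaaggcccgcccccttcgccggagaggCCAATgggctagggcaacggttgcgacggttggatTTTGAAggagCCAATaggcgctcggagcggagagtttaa
KIF11: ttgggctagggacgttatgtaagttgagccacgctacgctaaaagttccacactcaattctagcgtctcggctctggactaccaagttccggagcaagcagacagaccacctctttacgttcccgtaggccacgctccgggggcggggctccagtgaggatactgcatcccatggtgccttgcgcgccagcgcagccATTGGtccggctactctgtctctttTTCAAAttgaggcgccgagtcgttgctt
TOP2A: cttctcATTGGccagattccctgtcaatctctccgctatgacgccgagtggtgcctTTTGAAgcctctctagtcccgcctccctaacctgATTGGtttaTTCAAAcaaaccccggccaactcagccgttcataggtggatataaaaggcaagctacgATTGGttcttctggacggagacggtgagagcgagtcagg
SPC24: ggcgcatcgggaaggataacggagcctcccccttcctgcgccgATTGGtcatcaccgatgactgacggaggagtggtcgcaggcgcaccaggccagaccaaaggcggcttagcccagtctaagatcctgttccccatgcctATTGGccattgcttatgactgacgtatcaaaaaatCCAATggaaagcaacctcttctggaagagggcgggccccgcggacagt
MYBL2: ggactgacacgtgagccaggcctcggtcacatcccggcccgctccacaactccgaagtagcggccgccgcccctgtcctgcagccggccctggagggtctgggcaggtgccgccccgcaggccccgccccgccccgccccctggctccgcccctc
The ASPM stretch held 1 CHR element and 3 CCAAT boxes, that of CDC20 2 of each, that of KIF11 1 of each, and that of TOP2A 2 CHR elements and 3 CCAAT boxes. SPC24 showed 3 CCAAT boxes and no CHR element. None of the searched letters occurred in the MYBL2 stretch, which says only that they are not in this window. Within the 43 genes the median log2 fold change, resistant against sensitive, was -1.40 in U87 for the 21 with a CHR element and -1.15 for the 22 without. In U118 these medians were -1.18 and -1.30, so the order of the 2 classes was opposite in the tables of the 2 lines.

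Expression was given as TPM, a level per transcript length that sums to one fixed total per library, so that levels of different genes can be set side by side. TPM keeps no read counts, and the depth of the libraries is therefore unknown. The mesenchymal filament gene VIM stood at 4425 to 7149 TPM in all 12 libraries, while the astrocyte marker GFAP did not pass 0.693 TPM and AQP4 was listed at 0 in every library. ALDH1L1, another astrocyte gene, was at 19.99 to 24.1 TPM in U87 sensitive, 4.03 to 4.54 TPM in U87 resistant and at most 0.135 TPM in U118 libraries. Of 8 glial and neural markers 4 reached 1 TPM in some library, namely VIM, ALDH1L1, NES and OLIG2. NES was at 5.76 to 8.34 TPM in sensitive libraries and 10.4 to 24.1 TPM in those labelled resistant. OLIG2 was at 1.45 to 4.45 TPM in U87 and at most 1.05 TPM in U118 libraries. The share of TPM on mitochondrially encoded genes was 12.9% to 16.9% in U87 sensitive and 22.2% to 23.7% in U87 resistant libraries, and 7.42% to 19.7% and 13.2% to 29.9% in the U118 groups. Counts without these genes are given below. Over all genes tested, the median change on the log2 scale was -0.24 in U87 and -0.52 in U118, and it became -0.01 and -0.02 once the libraries were scaled by median ratios. A log2 fold change of these data is therefore read against that shift, and the calls are given under both scalings. In bulk RNA, fewer cells in mitosis and less of these RNAs in each cell cannot be told apart.

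Markers of other cell types were not all near 0, and some moved with the groups. Of 6 immune markers 2 reached 1 TPM in some library, with CD68, also a general lysosomal gene, at 170 to 379 TPM in every library and CSF1R at 1.34 to 15.2 TPM, while PTPRC, CD3E and CD14 were among those that did not reach it. Of 5 endothelial markers 3 reached it, namely VWF, at up to 1.12 TPM, KDR and TEK, while CDH5 did not pass 0.0740 TPM. KDR was at least 2.82 TPM in U87 sensitive, 1.02 to 1.28 TPM in U87 resistant, 1.08 to 1.51 TPM in U118 sensitive and at most 0.0820 TPM in libraries labelled U118 resistant, where TEK stood at 1.37 to 3.93 TPM. The 6 immune markers summed to 292 to 344 TPM in U87 sensitive, 207 to 247 in U87 resistant, 172 to 318 in U118 sensitive and 311 to 389 in libraries labelled U118 resistant, and the 5 endothelial markers to 3.17 to 3.73, 1.85 to 2.52, 2.19 to 2.30 and 1.84 to 4.66. The 5 epithelial markers, of which KRT8 and KRT18 reached 1 TPM, summed to 7.85 to 9.43, 10.7 to 12.4, 1.60 to 2.67 and 11.1 to 19.9 TPM. The summed TPM of 8 fibroblast markers was 194 to 201 in U87 sensitive, 359 to 429 in U87 resistant, 971 to 1317 in U118 sensitive and 185 to 421 in libraries labelled U118 resistant. In U118, PDGFRA stood at 71.8 to 88.3 TPM in sensitive libraries and at most 0.105 TPM in those labelled resistant, and DCN at 32.9 to 39.6 TPM and 0.224 to 1.06 TPM. LUM, FAP and POSTN were lower there too, and COL3A1 did not pass 0.263 TPM in either group. Other markers of the list stayed high. THY1 stood at 213 to 458.6 TPM and 51.2 to 103.5 TPM, against at most 0.127 TPM in U87 libraries. COL1A2 stood at 445.7 to 679.5 TPM and 124.4 to 313.5 TPM. The part of these markers in the results was not tested.

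In their expression, the libraries labelled U118 resistant went against their label, and the cause was not tested. Of 44 genes with at least 10 TPM in all U87 sensitive libraries and under 0.1 TPM in all U118 sensitive libraries, 37 reached 1 TPM in all 3 libraries labelled U118 resistant, with a median of 13.7 TPM over the 44 genes. Of 110 genes with the opposite pattern, 14 reached 1 TPM in all 3 of them and 63 were under 0.1 TPM in all 3. Over all genes, Spearman's rho of the libraries labelled U118 resistant was 0.829 to 0.850 with the U118 sensitive libraries, and 0.861 to 0.873 with the U87 libraries. Line and resistant state cannot be told apart in the U118 comparison, nor in the difference between the lines. No U118 comparison can be made without these libraries. The U87 comparison does not use them.

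**Figure D1:**
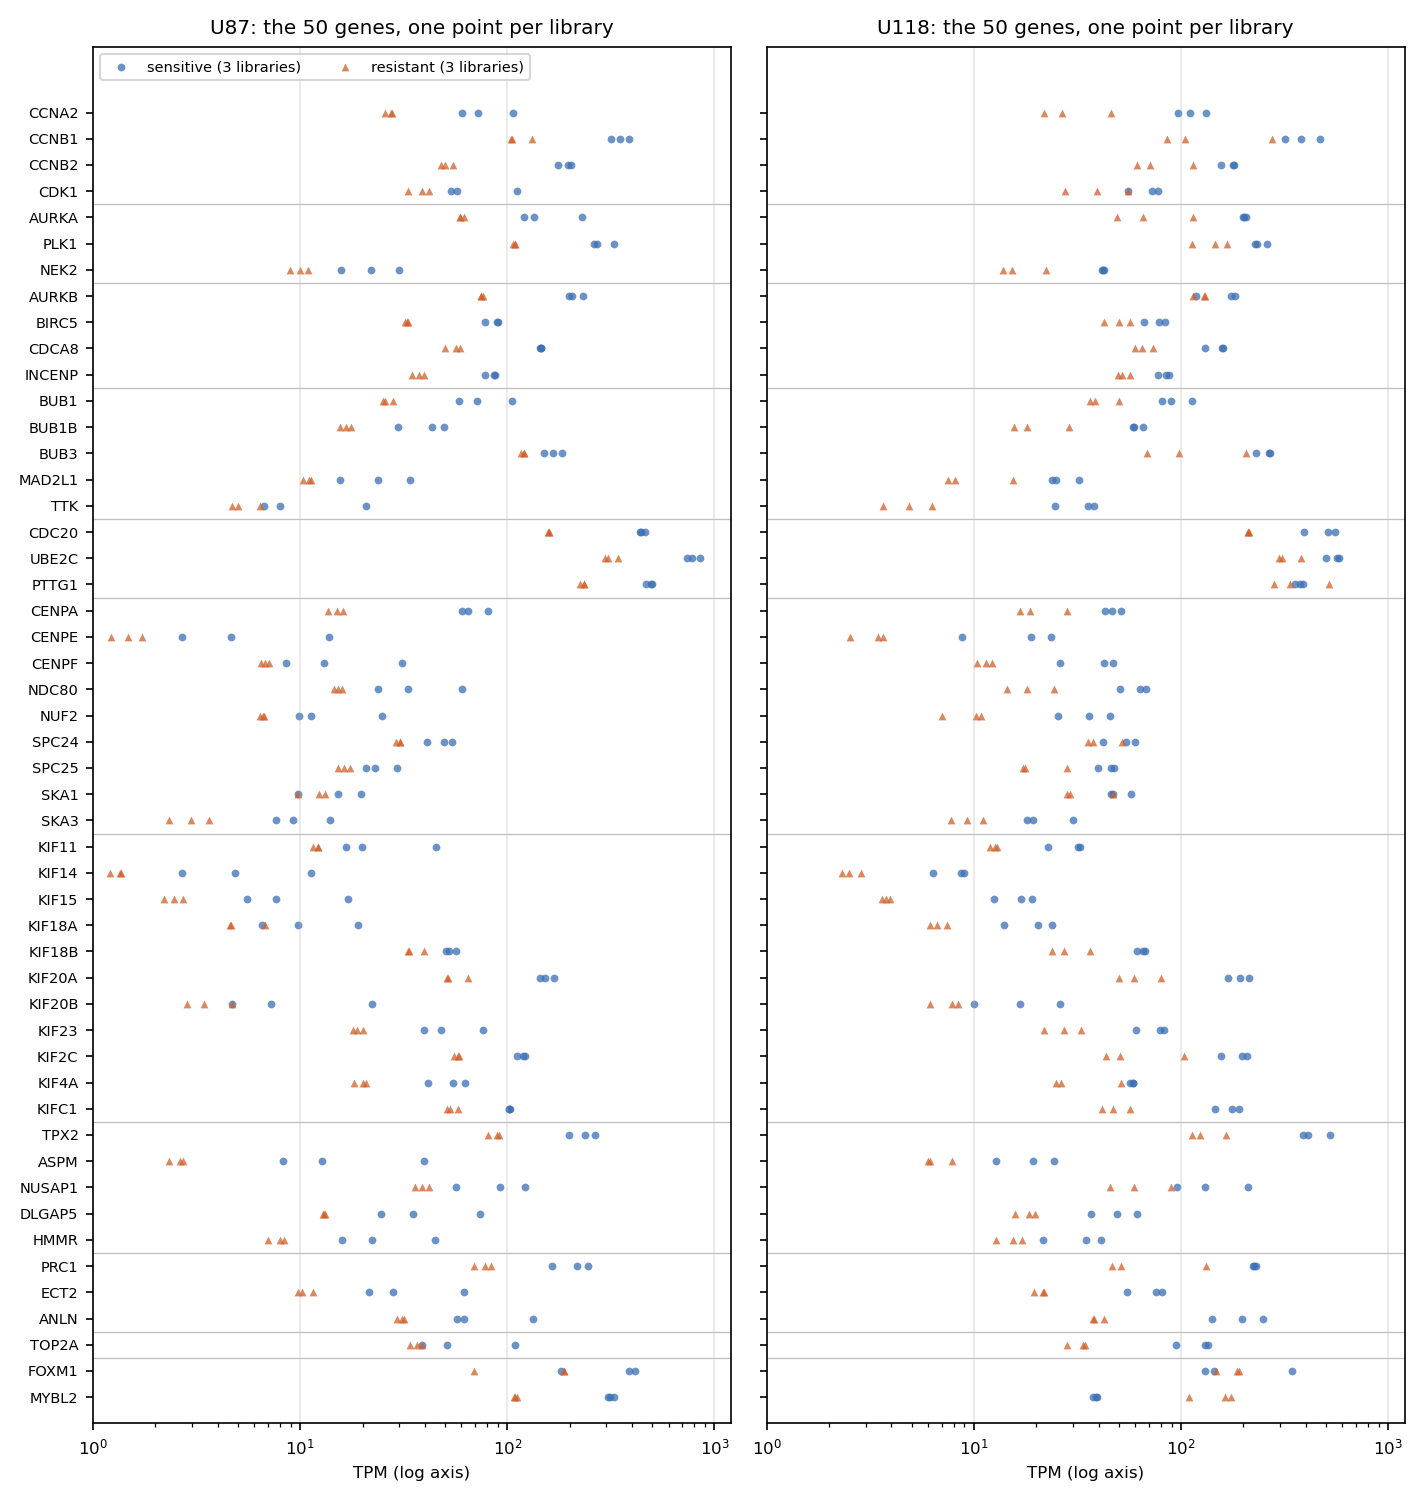
TPM (log axis) of the 50 genes in every library, U87 on the left and U118 on the right, with circles for sensitive and triangles for resistant libraries and lines between function groups. In U87 the resistant libraries all lie below the sensitive ones for 47 of 50 genes, and in U118 for 43, while MYBL2 lies above in the libraries labelled U118 resistant.

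Expression of the whole set was lower in the resistant libraries of both tables. The 50 genes summed to 5378 to 6553 TPM in U87 sensitive libraries and to 2282 to 2515 TPM in U87 resistant libraries, the latter mean being 40.1% of the former. In U118 the sums were 6107 to 6464 TPM and 2681 to 3869 TPM, a resistant mean of 50.0% of the sensitive mean. The groups did not overlap in either line. The library labelled U118 resistant 1 had the highest level in its group for 39 of the 50 genes. The share of all genes highest in it was not counted. This library had 13.2% of its TPM on mitochondrially encoded genes, against 29.9% and 26.1% in libraries 2 and 3 of that label. It had 15193 genes at 1 TPM or more, against 13270 and 13545.

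In U87, limma called 35 of the 50 genes lower and none higher, where a call needed an adjusted p (Benjamini-Hochberg, over all genes tested) under 0.05 and a change of 1 log2 unit or more. All adjusted p-values below are of this kind. Of the 13845 genes tested, 7.79% were called lower and 3.03% higher. All 50 fold changes were below 0, with a median of -1.34, and of -1.09 relative to the median of all genes. Under median-ratio scaling all 50 remained below 0 and 27 were called, against 3.92% of all genes called lower and 4.79% higher. The genes called without this scaling only were NEK2, INCENP, BUB1B, MAD2L1, PTTG1, NDC80, KIF2C and NUSAP1. Without the requirement on the fold, 42 genes passed the adjusted p, and the share of all genes doing so was not counted. No resistant library reached a sensitive one for 47 genes, against 39.8% of all genes, and the groups overlapped for SKA1, KIF18A and FOXM1.

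In U118, 38 of the 50 genes were called lower and 1, MYBL2, was called higher, against 26.6% and 8.64% of the 15527 genes tested. The median was -1.23, and -0.70 relative to all genes, with 49 genes below 0. Under median-ratio scaling 45 genes remained below 0, and 16 were called lower and 1 higher, against 12.9% and 15.2% of all genes. The genes called lower under both scalings were CCNA2, BUB1B, TTK, CENPE, CENPF, NDC80, NUF2, KIF15, KIF20A, KIF2C, KIFC1, TPX2, PRC1, ECT2, ANLN and TOP2A. Without mitochondrially encoded genes 25 were called lower (21.8% of all genes), and with the transcript length trend removed 17 (11.7%). Over all genes, the split of higher to lower calls went from 1341 and 4134 to 2337 and 1981 under median-ratio scaling in U118, and from 419 and 1078 to 663 and 543 in U87. The libraries labelled U118 resistant all lay below the sensitive ones for 43 genes, against 42.9% of all genes, and above them for MYBL2 (15.7% of all genes). CDK1, AURKB, PTTG1, SPC24, SKA1 and FOXM1 overlapped.

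**Figure D2:**
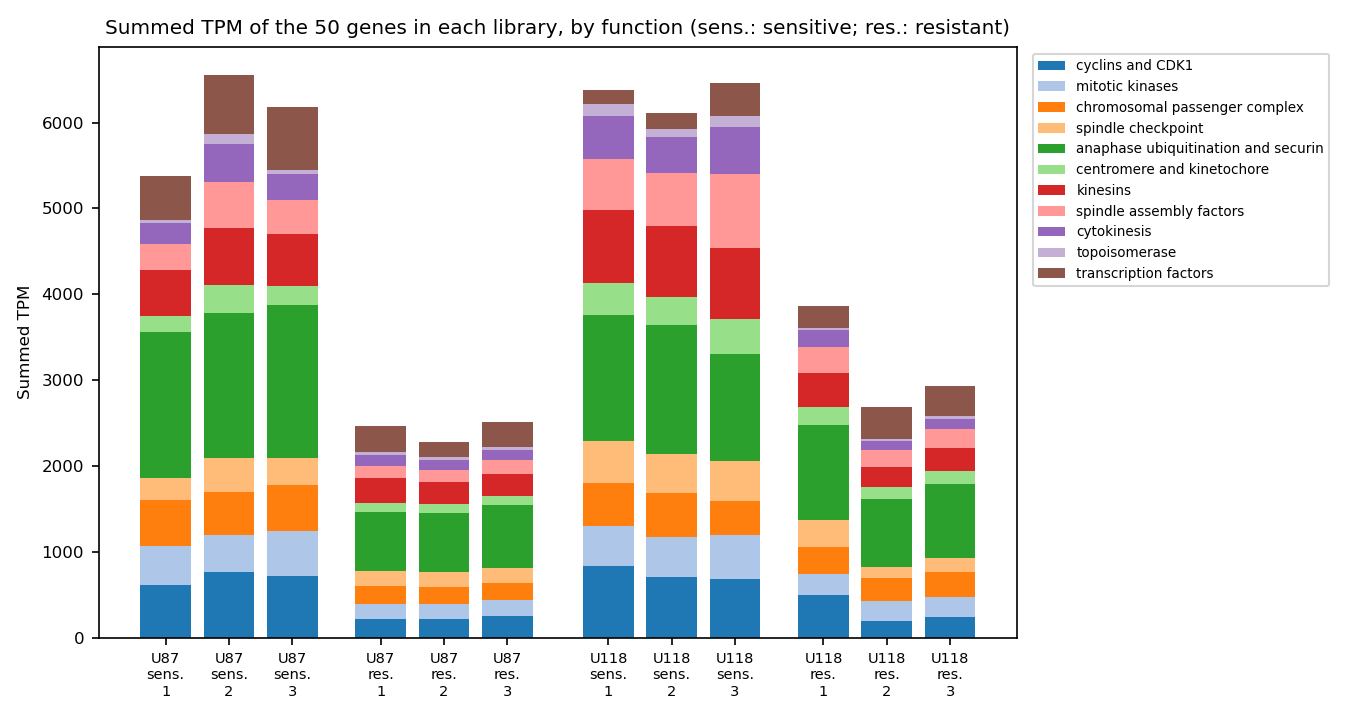
Summed TPM of the 50 genes in each of the 12 libraries, stacked by function. The U87 resistant libraries reach 2282 to 2515 TPM and those labelled U118 resistant 2681 to 3869 TPM, all below the sensitive libraries, which start at 5378 TPM.

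Counts by function below are read against the shares of all genes called lower, 7.79% in U87 and 26.6% in U118, and 3.92% and 12.9% under median-ratio scaling. Of the 4 genes of cyclins and CDK1, CCNA2, CCNB1 and CCNB2 were called lower in both lines and CDK1 in neither, and under median-ratio scaling 3 were called in U87 and 1 in U118. CCNB1, which encodes the main mitotic cyclin (gene at chr5:69167010-69178245), stood at 315, 349 and 388 TPM in U87 sensitive libraries 1 to 3 and at 105, 105 and 132 TPM in the resistant ones. The groups were far apart, and the log2 fold change was -1.62 (SE 0.12, limma adjusted p = 0.000167). In U118 it stood at 468, 379 and 318 TPM in sensitive libraries and at 275, 85.2 and 105 TPM in those labelled resistant. The first of the latter lay close to the sensitive libraries and the other two far below them, with a log2 fold change of -1.50 (SE 0.40, limma adjusted p = 0.0136) that was -0.94 and not called under median-ratio scaling.

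CCNB2, its close relative, had the third largest fall of the set in U87, from 176, 197 and 202 to 47.6, 50.01 and 54.8 TPM. Its log2 fold change was -1.90 (SE 0.09, limma adjusted p = 5.66e-05). In U118 it stood at 181, 177 and 156 TPM in sensitive libraries and 115, 61.5 and 70.5 TPM in those labelled resistant, and the change was -1.10 (SE 0.26, limma adjusted p = 0.00729). Without the library labelled U118 resistant 2, this call was lost.

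CCNA2, cyclin A2, acts from S phase into early mitosis. It stood at 60.1, 106 and 71.9 TPM in U87 sensitive libraries and at 25.5, 27.4 and 27.8 TPM in resistant ones, and at 111, 96.96 and 132 TPM in U118 sensitive libraries and 45.8, 21.7 and 26.6 TPM in those labelled resistant. The groups were separate in both lines, with log2 fold changes of -1.49 (SE 0.20, limma adjusted p = 0.00153) in U87 and -1.88 (SE 0.29, limma adjusted p = 0.00078) in U118. It was 1 of 8 genes called lower in both lines under either scaling, with CENPE, KIF15, KIF20A, TPX2, PRC1, ECT2 and ANLN. The share of all genes called so was not counted.

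CDK1, the kinase that these cyclins activate, had smaller changes. Its levels were 57.4, 111 and 53.2 TPM in U87 sensitive, 38.8, 33.3 and 41.7 TPM in U87 resistant, 72.8, 55.2 and 77.3 TPM in U118 sensitive and 55.8, 27.5 and 39.4 TPM in libraries labelled U118 resistant. Sensitive library 2 stood well above the other U87 libraries, and in U118 the first library labelled resistant reached the lowest sensitive one. The log2 fold changes of -0.87 (SE 0.27, limma adjusted p = 0.0423) and -0.77 (SE 0.28, limma adjusted p = 0.0462) passed the adjusted p but not the fold. Within a library, the ratio of CCNB1 to CDK1 does not depend on scaling. It was 5.31 ± 2.08 in U87 sensitive, 3.01 ± 0.269 in U87 resistant, 5.80 ± 1.48 in U118 sensitive and 3.56 ± 1.21 in the libraries labelled U118 resistant (SD, n = 3), and its ranges overlapped between the groups of each line.

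Among the mitotic kinases, AURKA and NEK2 were called lower in both lines and PLK1 in U87, and under median-ratio scaling 2 of the 3 in U87 and none in U118. AURKA, the Aurora kinase of centrosomes and spindle poles, stood at 119.8, 135 and 229 TPM in U87 sensitive and 59.2, 58.8 and 61.8 TPM in U87 resistant libraries. The resistant libraries lay close together under all sensitive ones, and the log2 fold change was -1.35 (SE 0.23, limma adjusted p = 0.00383). In U118 the levels were 198, 200.3 and 206 TPM in sensitive libraries and 114, 48.9 and 65.3 TPM in those labelled resistant, with a change of -1.48 (SE 0.30, limma adjusted p = 0.00323) that was -0.93 and not called under median-ratio scaling. NEK2, a kinase of centrosome separation, was the lowest of the group, at 15.7 to 30.0 TPM in U87 sensitive libraries, and changed by -1.06 (SE 0.23, limma adjusted p = 0.0104) and -1.27 (SE 0.23, limma adjusted p = 0.00208). Its U87 call was lost without sensitive library 2 or resistant library 1.

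PLK1, the Polo-like kinase that acts from mitotic entry to cytokinesis, was at 328, 262 and 272 TPM in U87 sensitive libraries and at 109, 109 and 106 TPM in resistant ones. The 3 resistant libraries were almost equal, and the log2 fold change was -1.40 (SE 0.10, limma adjusted p = 0.000128). In U118 the levels were 232, 228 and 259 TPM in sensitive libraries and 113, 166 and 146 TPM in those labelled resistant. These groups did not overlap either, but the change of -0.77 (SE 0.22, limma adjusted p = 0.0156) did not reach the fold. The difference between the lines, 0.63 (SE 0.22, limma adjusted p = 0.04), did not reach the fold either.

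The chromosomal passenger complex joins Aurora kinase B (AURKB) to survivin (BIRC5), borealin (CDCA8) and the scaffold INCENP, and corrects faulty attachments at centromeres. All 4 genes were called lower in U87 and CDCA8 alone in U118, against 3 and none under median-ratio scaling. AURKB stood at 204, 198 and 231 TPM in U87 sensitive and 74.5, 74.6 and 76.4 TPM in U87 resistant libraries, a log2 fold change of -1.47 (SE 0.08, limma adjusted p = 7.28e-05). In U118 it stood at 183, 174 and 118.5 TPM in sensitive libraries and 131, 115 and 129 TPM in those labelled resistant. Sensitive library 3 lay among the libraries labelled resistant, the change was -0.32 (SE 0.23, limma adjusted p = 0.265), and under median-ratio scaling its sign turned to 0.24.

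BIRC5 fell in U87 from 89.1, 89.8 and 78.4 to 31.99, 32.96 and 32.8 TPM, with a change of -1.37 (SE 0.09, limma adjusted p = 0.000107). In U118 it was at 78.1, 83.8 and 66.5 TPM in sensitive libraries and 56.9, 42.6 and 50.4 TPM in those labelled resistant, and the change of -0.60 (SE 0.21, limma adjusted p = 0.0388) did not reach the fold. CDCA8 changed by -1.38 (SE 0.08, limma adjusted p = 8.64e-05) and -1.17 (SE 0.20, limma adjusted p = 0.00136), and INCENP by -1.15 (SE 0.09, limma adjusted p = 0.000198) and -0.65 (SE 0.19, limma adjusted p = 0.0196). In U87 the 4 genes thus lay within a narrow band of fold changes, from -1.47 to -1.15. In U118 they ranged from -1.17 to -0.32.

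The spindle checkpoint was represented by BUB1, BUB1B, BUB3, MAD2L1 and TTK, whose products sense unattached kinetochores. In U87, 3 of the 5 were called lower, and in U118 all 5. Under median-ratio scaling these counts were 1 and 2. BUB1, a checkpoint kinase, stood at 58.3, 105 and 71.6 TPM in U87 sensitive libraries and 27.9, 25.5 and 25.1 TPM in resistant libraries and at 89.2, 80.8 and 113 TPM in U118 sensitive libraries and 50.2, 36.3 and 38.2 TPM in those labelled resistant. Groups were separate in both lines, with changes of -1.50 (SE 0.20, limma adjusted p = 0.00165) and -1.16 (SE 0.23, limma adjusted p = 0.00279). BUB1B, which encodes the checkpoint protein BUBR1, stood at 29.6, 49.6 and 43.1 TPM in U87 sensitive libraries and 16.6, 17.5 and 15.6 TPM in resistant libraries and at 58.6, 59.1 and 65.6 TPM in U118 sensitive libraries and 28.7, 15.7 and 18.1 TPM in those labelled resistant. Its changes were -1.22 (SE 0.19, limma adjusted p = 0.00292) and -1.55 (SE 0.25, limma adjusted p = 0.0011).

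BUB3, the partner of both BUB1 and BUBR1, was not called with them in U87. Its levels were 151, 184 and 165 TPM in sensitive and 121, 121 and 116 TPM in resistant libraries, without overlap. The change of -0.48 (SE 0.09, limma adjusted p = 0.00564) was the second smallest of the 50 and passed the adjusted p but not the fold. The ratio of BUB3 to BUB1B was higher in every U87 resistant library than in any sensitive one, at 7.19 ± 0.271 against 4.21 ± 0.762 (SD, n = 3). In U118 that ratio was 4.20 ± 0.615 and 5.65 ± 1.43, with overlap. There BUB3 stood at 270.0, 266 and 229 TPM in sensitive libraries and 207, 68.7 and 97.3 TPM in those labelled resistant, a change of -1.18 (SE 0.36, limma adjusted p = 0.0231) that lost its call without any 1 of 5 of the 6 libraries and kept it without the library labelled resistant 1.

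MAD2L1, which encodes the checkpoint effector MAD2, stood at 15.6, 34.02 and 23.8 TPM in U87 sensitive libraries and 10.3, 11.1 and 11.2 TPM in resistant libraries, and at 32.04, 24.8 and 23.9 TPM in U118 sensitive libraries and 15.4, 7.51 and 8.13 TPM in those labelled resistant. The changes were -1.04 (SE 0.26, limma adjusted p = 0.0187) and -1.35 (SE 0.30, limma adjusted p = 0.00506), and the U87 call held only without sensitive library 1. TTK, the kinase MPS1 that starts checkpoint signalling, had the largest fall of the set in U118, from 35.7, 24.5 and 38.01 TPM to 6.26, 3.63 and 4.86 TPM. Every sensitive library was several times above every library labelled resistant, and the change was -2.51 (SE 0.27, limma adjusted p = 9.97e-05). In U87 it stood at 6.67, 20.8 and 7.99 TPM in sensitive libraries and 4.67, 4.99 and 6.36 TPM in resistant libraries, where only sensitive library 2 was clearly higher and the change of -0.86 (SE 0.39, limma adjusted p = 0.121) was not called.

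CDC20, UBE2C and PTTG1 act at the start of anaphase, and they had the highest mean levels of the set in either U87 group. All 3 were called lower in U87 and CDC20 in U118, and 2 and none under median-ratio scaling. UBE2C, the ubiquitin-conjugating enzyme of the anaphase-promoting complex, stood at 734, 783 and 849.6 TPM in U87 sensitive libraries and at 305, 296 and 344 TPM in resistant ones. Its change was -1.32 (SE 0.08, limma adjusted p = 0.000108). In U118 it stood at 565, 578 and 504 TPM in sensitive libraries and 379.8, 296 and 308 TPM in those labelled resistant, separate groups whose change of -0.75 (SE 0.21, limma adjusted p = 0.0152) did not reach the fold.

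CDC20, the activator of that complex, was nearly equal within each resistant group. It stood at 464, 438 and 441 TPM in U87 sensitive, 159, 157 and 158 TPM in U87 resistant, 515, 554 and 390.3 TPM in U118 sensitive and 212, 211 and 211 TPM in the libraries labelled U118 resistant. The changes were -1.50 (SE 0.06, limma adjusted p = 2.64e-05) and -1.18 (SE 0.21, limma adjusted p = 0.0018). The U118 value was -0.62 and not called under median-ratio scaling.

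PTTG1 encodes securin, the inhibitor that keeps separase from cutting cohesin. It stood at 501, 466 and 496 TPM in U87 sensitive libraries and 224, 235 and 234 TPM in resistant ones, a change of -1.08 (SE 0.06, limma adjusted p = 7.81e-05) that was -0.81 and not called under median-ratio scaling. In U118 the sensitive libraries stood at 389.9, 376 and 355 TPM and those labelled resistant at 516, 280.2 and 337 TPM. The latter lay on both sides of the former, and the change of -0.03 (SE 0.26, limma adjusted p = 0.926) was the smallest of the 50 genes. Its sign turned to 0.53 under median-ratio scaling. Within libraries, the ratio of PTTG1 to CCNB1 was higher in the resistant groups of both lines. It was 1.401 ± 0.167 in U87 sensitive and 2.05 ± 0.246 in U87 resistant libraries, and 0.981 ± 0.143 and 2.79 ± 0.797 in U118 (SD, n = 3), without overlap in either line. With 3 libraries against 3, an exact two-sided permutation test cannot go below p = 0.1.

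The 9 centromere and kinetochore genes had 4 members called lower in U87 and 7 in U118, and 3 and 4 under median-ratio scaling. CENPA, the histone H3 variant that marks centromeres (gene at chr2:26764289-26801067), stood at 60.1, 80.9 and 64.7 TPM in U87 sensitive and 13.6, 16.02 and 15.0 TPM in U87 resistant libraries. The gap was wide, and the change of -2.12 (SE 0.14, limma adjusted p = 0.000108) was the second largest fall in that line. In U118 the levels were 43.05, 51.1 and 46.2 TPM in sensitive libraries and 28.1, 18.7 and 16.7 TPM in those labelled resistant, with a change of -1.14 (SE 0.24, limma adjusted p = 0.00456) that was -0.60 and not called under median-ratio scaling. Exons of CENPA share bases with the neighbouring gene SLC35F6 on the same strand, so its counted reads may include that gene's.

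CENPE, the kinesin that moves chromosomes to the metaphase plate, and CENPF, a large protein of the outer kinetochore, have long transcripts of 8612 and 10307 bases. CENPE stood at 2.69, 13.7 and 4.63 TPM in U87 sensitive libraries and 1.72, 1.22 and 1.48 TPM in resistant libraries, and at 18.8, 8.72 and 23.5 TPM in U118 sensitive libraries and 3.65, 2.53 and 3.46 TPM in those labelled resistant. Sensitive library 2 of U87 was far above the other two, and the changes were -1.45 (SE 0.47, limma adjusted p = 0.0476) and -2.003 (SE 0.35, limma adjusted p = 0.00161). The U87 call held in 1 of the 6 fits that left out a library. CENPF stood at 8.51, 30.98 and 13.03 TPM in U87 sensitive libraries and 6.74, 7.04 and 6.47 TPM in resistant libraries and at 42.4, 26.1 and 47.1 TPM in U118 sensitive libraries and 11.4, 10.4 and 12.2 TPM in those labelled resistant, with changes of -1.07 (SE 0.41, limma adjusted p = 0.0794) and -1.64 (SE 0.26, limma adjusted p = 0.000967), the first not called.

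NDC80, NUF2, SPC24 and SPC25 encode the 4 subunits of the complex that grips microtubules. NDC80 stood at 23.8, 60.5 and 33.1 TPM in U87 sensitive libraries and 15.2, 15.9 and 14.6 TPM in resistant libraries and at 67.5, 50.7 and 63.5 TPM in U118 sensitive libraries and 24.3, 14.5 and 17.9 TPM in those labelled resistant, with changes of -1.20 (SE 0.31, limma adjusted p = 0.0202) and -1.65 (SE 0.25, limma adjusted p = 0.000681). The U87 call was lost in 5 of the 6 fits that left out a library and held without sensitive library 1. Its partner NUF2 changed by -0.99 (SE 0.32, limma adjusted p = 0.0453) and -1.81 (SE 0.28, limma adjusted p = 0.000786). SPC25 stood at 20.7, 29.3 and 22.9 TPM in U87 sensitive libraries and 15.3, 17.4 and 16.4 TPM in resistant libraries and at 45.7, 39.9 and 47.5 TPM in U118 sensitive libraries and 27.998, 17.6 and 17.2 TPM in those labelled resistant. Its changes were -0.53 (SE 0.15, limma adjusted p = 0.0284), the third smallest in that line and not called, and -1.08 (SE 0.25, limma adjusted p = 0.0061). The ratio of SPC25 to NDC80 was 0.682 ± 0.193 in U87 sensitive and 1.07 ± 0.0597 in U87 resistant libraries, and 0.738 ± 0.0563 and 1.11 ± 0.134 in U118 (SD, n = 3). In both lines every resistant library had a higher ratio than every sensitive one.

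SPC24 was called in neither line. It stood at 40.9, 54.1 and 49.6 TPM in U87 sensitive, 30.2, 29.02 and 30.2 TPM in U87 resistant, 59.8, 54.1 and 42.2 TPM in U118 sensitive and 52.03, 35.6 and 37.6 TPM in libraries labelled U118 resistant. The U87 groups were separate and the U118 groups overlapped. The changes were -0.67 (SE 0.12, limma adjusted p = 0.00497) and -0.32 (SE 0.24, limma adjusted p = 0.286), and the sign of the second turned to 0.23 under median-ratio scaling.

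SKA1 and SKA3 belong to the complex that keeps kinetochores on shrinking microtubules, and differed in their calls. SKA3 was called lower in both lines, with changes of -1.48 (SE 0.24, limma adjusted p = 0.00346) and -1.15 (SE 0.27, limma adjusted p = 0.00696). SKA1 stood at 9.80, 19.7 and 15.2 TPM in U87 sensitive, 12.3, 9.72 and 13.2 TPM in U87 resistant, 47.1, 45.7 and 57.5 TPM in U118 sensitive and 47.1, 28.1 and 29.1 TPM in libraries labelled U118 resistant. Groups overlapped in both lines, and the U87 change of -0.28 (SE 0.25, limma adjusted p = 0.416) was the smallest there. The U118 change was -0.55 (SE 0.25, limma adjusted p = 0.098).

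Of the 11 mitotic kinesins, 6 were called lower in U87 and 10 in U118, and 5 and 4 under median-ratio scaling. KIF11, the bipolar motor that pushes spindle poles apart, stood at 16.5, 45.1 and 19.8 TPM in U87 sensitive libraries and 12.2, 11.5 and 12.2 TPM in resistant libraries and at 32.4, 22.9 and 31.8 TPM in U118 sensitive libraries and 12.7, 12.01 and 12.97 TPM in those labelled resistant. Groups were separate, with changes of -0.98 (SE 0.34, limma adjusted p = 0.0594), which was not called, and -1.13 (SE 0.23, limma adjusted p = 0.00318). KIF2C, which takes microtubules apart at centromeres, stood at 119, 112 and 121 TPM in U87 sensitive libraries and 57.7, 58.4 and 55.4 TPM in resistant libraries and at 209, 197 and 157 TPM in U118 sensitive libraries and 103, 43.4 and 50.8 TPM in those labelled resistant. The changes were -1.02 (SE 0.07, limma adjusted p = 0.000142) and -1.59 (SE 0.32, limma adjusted p = 0.00337).

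KIF20A and KIF23, motors of the midzone and cytokinesis, were lower in the libraries labelled resistant of both tables. KIF20A stood at 152, 144 and 167 TPM in U87 sensitive libraries and 64.8, 50.9 and 51.7 TPM in resistant libraries, and at 169, 193 and 212 TPM in U118 sensitive libraries and 79.7, 50.4 and 59.3 TPM in those labelled resistant. The groups were separate, and its changes were -1.46 (SE 0.12, limma adjusted p = 0.000208) and -1.61 (SE 0.23, limma adjusted p = 0.000518), called under both scalings. KIF23 stood at 39.4, 76.6 and 48.04 TPM in U87 sensitive libraries and 20.1, 18.7 and 17.9 TPM in resistant libraries and at 78.95, 60.8 and 82.3 TPM in U118 sensitive libraries and 32.7, 21.7 and 27.2 TPM in those labelled resistant, with changes of -1.43 (SE 0.23, limma adjusted p = 0.00331) and -1.42 (SE 0.23, limma adjusted p = 0.00115).

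The other kinesins were described by range. KIF14 was the least abundant gene of the set in every group, at 1.21 to 11.3 TPM in U87 and 2.31 to 8.93 TPM in U118. KIF14 and KIF15 were called lower in both lines. KIF18A, KIF18B, KIF20B and KIFC1 were called in U118 alone, with U87 changes of -0.92, -0.58, -1.17 and -0.91. KIF4A, a chromosome motor, was called in U87 alone, at -1.37, with -0.83 in U118. For none of these 5 genes was a difference between the lines called, which does not show that they changed alike. For KIFC1 this difference, -0.89 (SE 0.21, limma adjusted p = 0.00533), missed only the fold.

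All 5 spindle assembly factors were called lower in both lines. Under median-ratio scaling 4 were called in U87 and TPX2 alone in U118. TPX2, the activator of Aurora A on spindle microtubules, stood at 198, 264 and 237 TPM in U87 sensitive libraries and 88.6, 80.3 and 91.6 TPM in resistant libraries and at 388, 409 and 522 TPM in U118 sensitive libraries and 165, 114 and 123 TPM in those labelled resistant. It was separate in both, with changes of -1.41 (SE 0.12, limma adjusted p = 0.000243) and -1.71 (SE 0.23, limma adjusted p = 0.000365). ASPM, a spindle pole protein whose loss causes microcephaly, stood at 8.25, 39.5 and 12.7 TPM in U87 sensitive libraries and 2.33, 2.62 and 2.72 TPM in resistant libraries. The change of -2.28 (SE 0.50, limma adjusted p = 0.0116) was the largest fall in that line and leaned on sensitive library 2, without which it was still called, at -1.66. In U118 ASPM stood at 19.2, 12.8 and 24.5 TPM in sensitive libraries and 6.14, 5.996 and 7.84 TPM in those labelled resistant, with a change of -1.34 (SE 0.28, limma adjusted p = 0.00399).

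NUSAP1, DLGAP5 and HMMR bundle or bind spindle microtubules. Their U87 changes were -1.13, -1.55 and -1.58 and their U118 changes -1.14, -1.37 and -1.01. The calls of NUSAP1 were lost without 2 of the U87 libraries, each left out alone, and without 3 of the U118 libraries.

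The 3 genes of cytokinesis were called lower in both lines under both scalings. PRC1, the bundler of midzone microtubules, stood at 164, 245 and 216 TPM in U87 sensitive libraries and 83.5, 69.1 and 78.2 TPM in resistant libraries and at 231, 222 and 226 TPM in U118 sensitive libraries and 133, 46.5 and 51.3 TPM in those labelled resistant. The changes were -1.41 (SE 0.16, limma adjusted p = 0.000723) and -1.71 (SE 0.37, limma adjusted p = 0.0044). ECT2, which activates RhoA at the cleavage furrow, stood at 21.5, 62.1 and 27.9 TPM in U87 sensitive libraries and 9.76, 11.5 and 10.2 TPM in resistant libraries and at 81.3, 55.0 and 75.6 TPM in U118 sensitive libraries and 21.5, 19.4 and 21.9 TPM in those labelled resistant, with changes of -1.59 (SE 0.36, limma adjusted p = 0.0125) and -1.69 (SE 0.22, limma adjusted p = 0.000315).

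ANLN, the furrow scaffold anillin, had the second largest fall in U118, from 197, 141 and 248 to 42.6, 37.5 and 37.8 TPM. The change there was -2.25 (SE 0.24, limma adjusted p = 9.78e-05). In U87 the levels were 57.4, 134 and 61.96 TPM in sensitive libraries and 30.9, 31.7 and 29.4 TPM in resistant libraries and the change was -1.32 (SE 0.30, limma adjusted p = 0.0135), a call that was lost without sensitive library 2. TOP2A, the topoisomerase that untangles sister chromatids, stood at 135, 94.4 and 130.3 TPM in U118 sensitive libraries and 34.2, 28.1 and 33.5 TPM in those labelled resistant, with a change of -1.87 (SE 0.22, limma adjusted p = 0.000168). In U87 it stood at 38.9, 109 and 51.1 TPM in sensitive libraries and 38.8, 33.9 and 36.4 TPM in resistant libraries. Sensitive library 1 was level with resistant library 1, and the change of -0.71 (SE 0.34, limma adjusted p = 0.145) was not called.

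**Figure D3:**
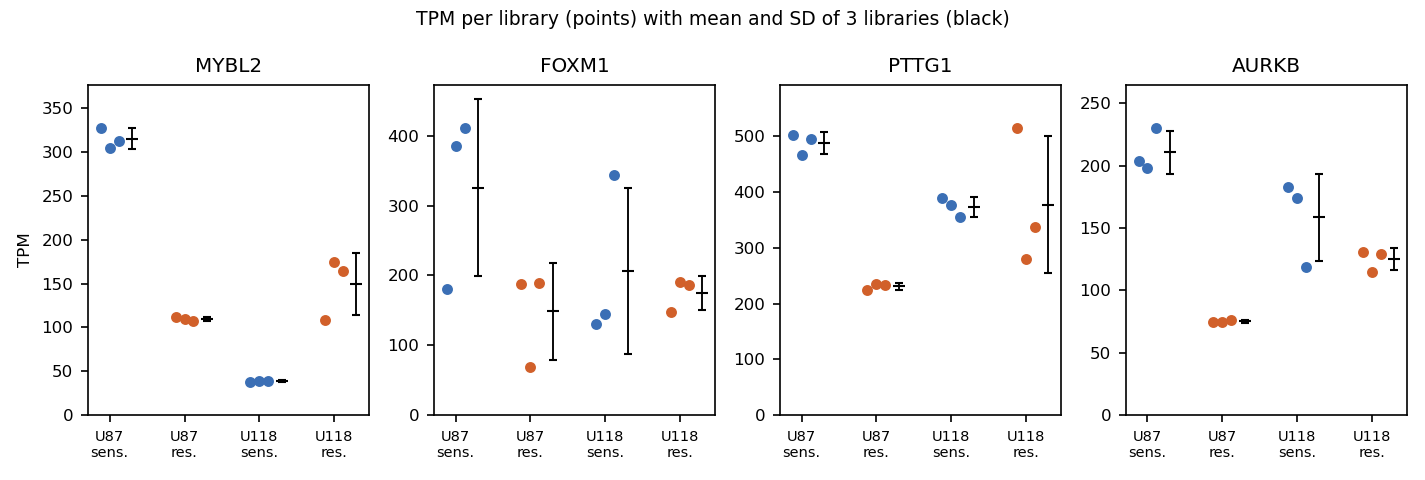
TPM in every library for MYBL2, FOXM1, PTTG1 and AURKB, with sensitive libraries in blue, resistant libraries in orange, and the mean and SD of 3 libraries in black. MYBL2 is at 305 to 328 TPM in U87 sensitive libraries, between 107 and 175 TPM in all resistant libraries of both labels, and at 37.4 to 39.2 TPM in U118 sensitive libraries.

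MYBL2, which encodes B-Myb, the activating partner of MuvB, was the exception of the set. In U87 it stood at 328, 305 and 313 TPM in sensitive libraries and 112, 109 and 107 TPM in resistant ones. The libraries of each group were nearly equal, and the change was -1.52 (SE 0.06, limma adjusted p = 3.02e-05). In U118 sensitive libraries it stood at 37.4, 39.2 and 38.95 TPM, the lowest of any group. The libraries labelled U118 resistant stood at 109, 175 and 164 TPM, all above, a change of 1.90 (SE 0.23, limma adjusted p = 0.000201). The first of these levels lay among the U87 resistant libraries, the other two above them, and all below the U87 sensitive ones. The 2 tables were set side by side here without a test.

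FOXM1, the forkhead factor that follows B-Myb on the same promoters, was uneven within groups. It stood at 181, 385 and 412 TPM in U87 sensitive, 188, 68.7 and 189 TPM in U87 resistant, 131, 145 and 344 TPM in U118 sensitive and 147, 191 and 186 TPM in libraries labelled U118 resistant. Single libraries of 3 of these groups stood apart from the other two, and the groups overlapped in both lines. The changes were -1.18 (SE 0.47, limma adjusted p = 0.0886) and -0.11 (SE 0.35, limma adjusted p = 0.818), neither called, and the second turned to 0.45 under median-ratio scaling. Exons of FOXM1 overlap ITFG2 on the opposite strand. In U118, the ratio of MYBL2 to FOXM1 was 0.223 ± 0.0956 in sensitive libraries and 0.845 ± 0.0934 in those labelled resistant (SD, n = 3), without overlap.

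The changes were then compared between the lines by an interaction over all 12 libraries. Of the 50 genes, 27 were called lower in both lines, 8 in U87 alone, 11 in U118 alone and 4 (CDK1, SPC24, SKA1 and FOXM1) in neither. Of all genes tested, 7.79% were called lower in U87 and 26.6% in U118. The shares of all genes called lower in both lines or in 1 alone were not counted. Because line and resistant state cannot be told apart in U118, a call in both lines is not shown to repeat the U87 change. The interaction called 5 genes, 10% of the set, against 30.5% of the 16382 genes tested (18.5% lower and 12% higher). Without the requirement on the fold, 3 genes passed the adjusted p as lower and 9 as higher. The 30.5% needs the fold as well, and the share of all genes passing the adjusted p alone was not counted. The change in U118 minus that in U87 was 3.42 (SE 0.23, limma adjusted p = 1.89e-07) for MYBL2, 1.16 (SE 0.23, limma adjusted p = 0.00169) for AURKB and 1.04 (SE 0.26, limma adjusted p = 0.00753) for PTTG1. It was -1.65 (SE 0.49, limma adjusted p = 0.019) for TTK and -1.15 (SE 0.42, limma adjusted p = 0.0472) for TOP2A. MYBL2 alone was called in opposite directions in the 2 lines.

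These calls were not equally firm. Leaving out 1 library at a time, MYBL2 was called in 12 of 12 fits, AURKB, TTK and PTTG1 in 11 each and TOP2A in 3. Without U118 sensitive library 3 AURKB was not called, without U87 sensitive library 3 TTK was not, and without the library labelled U118 resistant 1 PTTG1 was not. Under median-ratio scaling 7 genes were called, namely CCNB2, AURKB, BIRC5, TTK, PTTG1, CENPA and MYBL2, against 30.3% of all genes. Over the 50 genes, Spearman's rho between the 2 lines' fold changes was 0.061, and 0.105 over the 49 genes without MYBL2. This is across genes, which are not independent replicates.

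**Figure D4:**
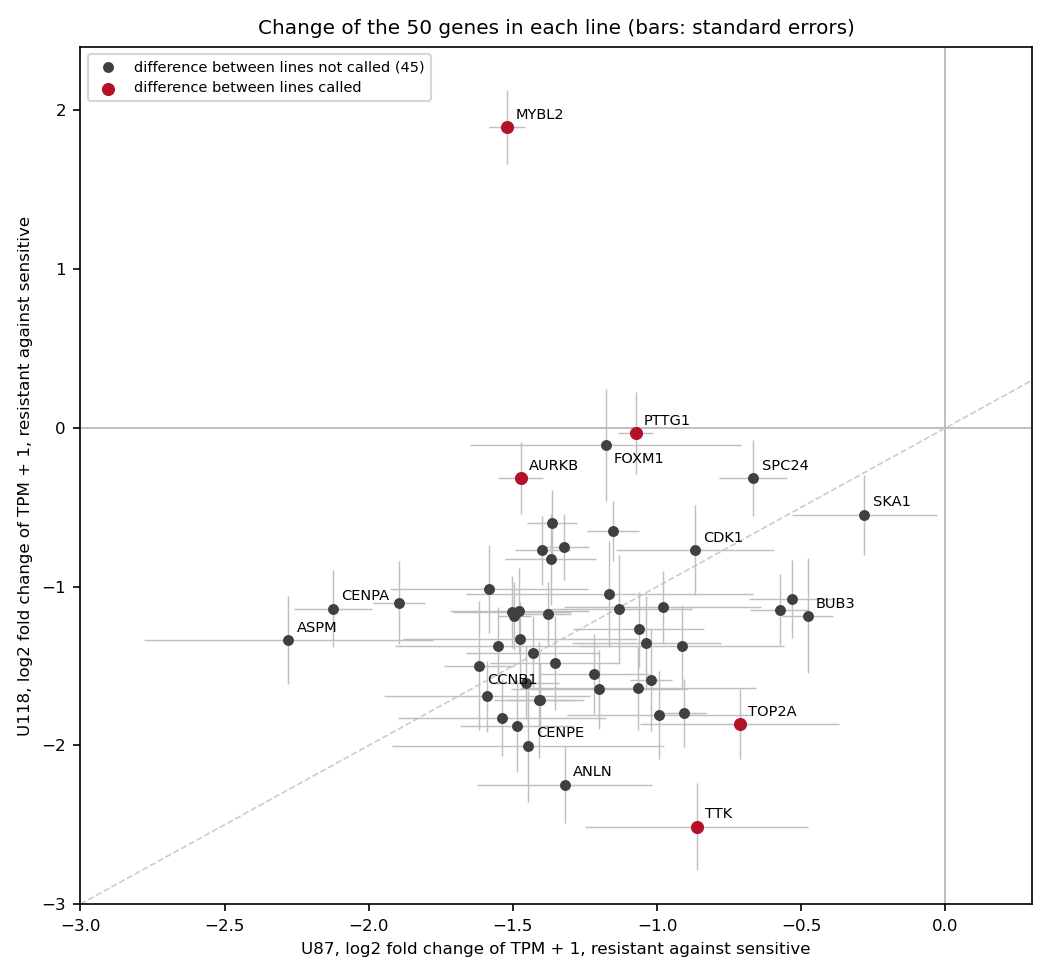
Log2 fold change of TPM + 1, resistant against sensitive, in U87 (horizontal) and U118 (vertical) for the 50 genes, with standard errors as bars, a dashed line of equal change, and the 5 genes with a called difference between the lines in red. All genes lie left of 0 in U87, and MYBL2 is alone well above 0 in U118. AURKB, PTTG1, SPC24 and FOXM1 change sign in U118 under median-ratio scaling.

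Setting levels side by side across the tables, without a test, placed the libraries labelled U118 resistant nearer to U87. Over the 50 genes, Spearman's rho of their mean levels was 0.974 with U87 resistant, 0.964 with U87 sensitive and 0.9002 with U118 sensitive libraries. The median log2 ratio to U87 resistant was 0.46, with 44 of 50 genes higher. To U87 sensitive it was -0.99, with 49 of 50 genes lower and SKA1 higher. Between the sensitive groups, U118 was higher for 38 of 50 genes, with a median log2 ratio of 0.32. The extremes were SKA1 at 1.75 and MYBL2 at -3.04.

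The share of the summed TPM taken by each function does not depend on the scaling of a library. Anaphase ubiquitination and securin took 28.8% ± 2.94 in U87 sensitive, 29.1% ± 1.16 in U87 resistant, 22.4% ± 2.75 in U118 sensitive and 29.1% ± 0.379 in the libraries labelled U118 resistant (SD, n = 3). Kinesins took 9.95% ± 0.227, 11.0% ± 0.697, 13.2% ± 0.399 and 9.44% ± 0.706 in the same order. Transcription factors took 10.6% ± 1.14, 10.6% ± 2.401, 3.85% ± 1.80 and 10.7% ± 3.67. These 3 functions were named after their values were seen. In 9 of the 11 functions the mean share of the libraries labelled U118 resistant was closer to both U87 groups than to U118 sensitive. The other two were mitotic kinases, at 7.36% to 7.87% in all 4 groups, and centromere and kinetochore, at 5.39% against 5.81% in U118 sensitive, 4.01% in U87 sensitive and 4.37% in U87 resistant. Some margins among the 9 were narrow. Cyclins and CDK1 took 9.42% ± 2.89, against 11.5% in U87 sensitive and 11.7% in U118 sensitive. Spindle checkpoint took 6.18% ± 1.57, against 7.37% in U87 resistant and 7.44% in U118 sensitive (SD, n = 3). The shares of a library sum to a fixed total, so the functions are not separate observations.

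Within the U87 sensitive group the 50 genes varied with transcript length. Sensitive library 2 had the highest level in its group for 35 of the 50 genes, and the share of all genes highest in it was not counted. Over the 50 genes, Spearman's rho between longest transcript and the log2 ratio to the other 2 libraries was 0.504 in library 2 and -0.490 in library 1, and over all genes it was 0.211 and -0.237. For the 25 genes at or above 3152 bases the median log2 ratio in library 2 was 0.80, and for the 25 shorter genes it was 0.26. ASPM, CENPE, CENPF, KIF14 and KIF20B were among the genes with the widest spread in this group. The fold change itself had a rho with length of 0.012 in U87 and -0.356 in U118. Without sensitive library 2, 29 of the 50 genes were called lower in U87, and without sensitive library 1, 43. Such a relation to length was not limited to U87 sensitive libraries. The same rho over the 50 genes, for the log2 ratio to the other libraries of the group, was -0.51 in U118 sensitive 2. It was 0.41 in U118 sensitive 3, and -0.31 and 0.32 in the libraries labelled U118 resistant 1 and 3.

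**Figure D5:**
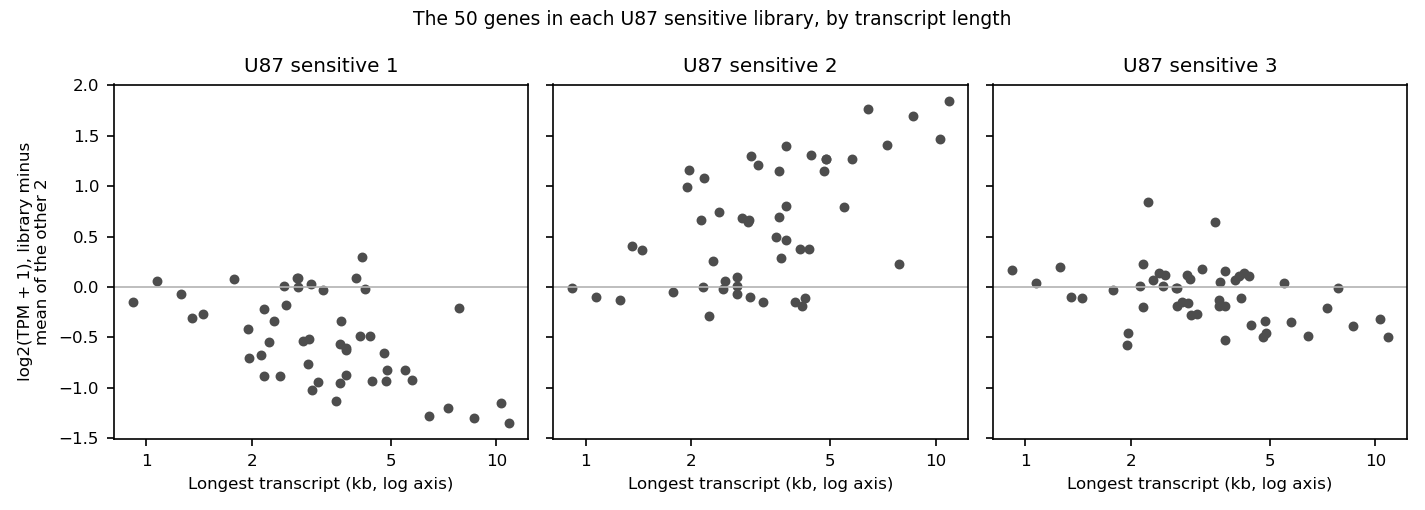
Log2(TPM + 1) of each of the 50 genes in 1 U87 sensitive library minus the mean of the other 2, against the longest annotated transcript (kb, log axis), in 3 panels for the 3 libraries. Points rise with length in library 2 (rho 0.504) and fall with length in library 1 (rho -0.490).

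Other genes of the pathway were counted from 10 lists of 222 genes, and their counts in U87 are read against 7.79% of all genes called lower and 3.03% higher, or 3.92% and 4.79% under median-ratio scaling. In U87 the list with the lowest median was cohesin, separase and condensin, which hold and fold sister chromatids. There 10 of 18 were called lower and none higher, with a median of -1.07, and 4 under median-ratio scaling. SMC1A, a cohesin subunit, fell from 79.01 ± 0.768 TPM to 20.99 ± 3.69 TPM (SD, n = 3), a log2 fold change of -1.88 (SE 0.13, limma adjusted p = 0.000129). SMC4, a condensin subunit, changed by -1.64. Other kinetochore and checkpoint genes had 6 of 23 called lower (median -0.67), led by KNL1 and SGO1 at -1.57 and -1.39, and the constitutive centromere network had 4 of 16 (median -0.61), led by CENPI and CENPN at -1.55 and -1.40. Under median-ratio scaling these 2 lists had 3 genes each called lower, and the kinetochore list had 1 called higher. The kinetochore list also holds MXD3, which encodes a transcription factor rather than a kinetochore or checkpoint protein.

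Counts were smaller for other functions in U87. The core of the anaphase-promoting complex had 1 of 17 called lower, ANAPC13 at -1.06, although its partners CDC20 and UBE2C fell. Replication licensing and DNA synthesis had 2 of 43, MCM2 at -1.14 and GINS2 at -1.10, with a median of -0.24, as for all genes. Kinesins outside mitosis had 2 lower and 1 higher of 21 tested, with a median of -0.12. KIFC3 and KIF21B were called lower, at -1.69 and -1.10. Centrosome duplication and gamma-tubulin genes had 5 of 22, led by HAUS2 and PLK4 at -1.45 and -1.32, and spindle tubulins and microtubule factors 6 of 22, led by CKAP2 and TACC3 at -1.60 and -1.27. Under median-ratio scaling none of the anaphase-promoting core or of replication was called, centrosome genes had 3 and spindle tubulins 2 called lower, and kinesins outside mitosis had 1 lower and 2 higher, with a median that turned to 0.14.

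Of 15 CDK1 regulators, 6 were called lower and 1 higher in U87, and 2 lower and 2 higher under median-ratio scaling. CDKN1A, which encodes the CDK inhibitor p21, rose from 119.5 ± 4.85 TPM to 761 ± 105 TPM (SD, n = 3), a log2 fold change of 2.65 (SE 0.11, limma adjusted p = 3.02e-05). CDC25A, a phosphatase that activates CDKs, changed by -1.41. Of the 22 DREAM, MuvB and E2F regulators tested, 3 were called lower, among them the MuvB subunit LIN9 at -1.79 and E2F5 at -2.39, and 3 lower and 1 higher under median-ratio scaling.

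In U118, 8 of the 10 lists had more lower calls than in U87, as did all genes (6 of the 10 under median-ratio scaling), and cohesin, separase and condensin and the CDK1 regulators did not. These counts are read against 26.6% of all genes called lower and 8.64% higher, or 12.9% and 15.2% under median-ratio scaling. Called lower were 10 of 18 cohesin, separase and condensin genes (median -1.23), 13 of 23 other kinetochore and checkpoint genes (-1.11), 7 of 16 of the constitutive centromere network (-0.97), 11 of 23 centrosome genes (-0.98) and 13 of 22 spindle tubulins and microtubule factors (-1.26). Replication had 17 lower and 1 higher of 43 (-0.80) and the anaphase-promoting core 4 of 17 (-0.56). Kinesins outside mitosis had 4 lower and 5 higher of 21 (-0.34). The lower calls of the last 2 lists were no more frequent than among all genes. With the median-ratio scaling, those lower calls numbered 5, 7, 2, 4, 2, 4, 0 and 2 in the same order, and kinesins outside mitosis had 7 called higher and a median that turned to 0.18. The constitutive centromere network, the other kinetochore genes, centrosome genes, spindle tubulins, replication and the anaphase-promoting core had 1 called higher each.

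The largest U118 changes by list were SMC2 at -2.51 and NCAPD3 at -2.20 among condensins, ZW10 at -2.26 and SGO2 at -1.83 among kinetochore genes, and CENPB at -2.15 and CENPO at -1.74 in the centromere network. PLK4 and PCNT of the centrosome changed by -1.86 and -1.84, GINS1 and CDC7 of replication by -2.19 and -2.17, and ANAPC4 and ANAPC1 by -1.42 and -1.30. TUBA1A and CKAP2 changed by -1.72 and -1.67, and KIF7 by -2.54. CDKN1A stood at 70.7 ± 30.99 TPM in U118 sensitive libraries and 558 ± 118.4 TPM in those labelled resistant (SD, n = 3). The log2 fold change was 3.04 (SE 0.34, limma adjusted p = 0.000114). Of the 15 CDK1 regulators 5 were called lower and 1 higher, with CDC25B at -2.28, and under median-ratio scaling 2 lower and 3 higher, while the list's median turned from -0.22 to 0.34. Of 23 DREAM, MuvB and E2F regulators 11 were called lower, NFYA among them at -1.79, and under median-ratio scaling 4 lower and 3 higher. E2F7 stood at 49.1 ± 6.61 TPM (SD, n = 3) in U118 sensitive libraries and was listed at 0 in all 3 libraries labelled U118 resistant. KIF21B went the other way, with a mean of 0.00293 TPM in U118 sensitive libraries and 10.8 ± 0.462 TPM in those labelled resistant.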

How the data were processed

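The mRNA-seq covered 3 libraries in each of 4 groups, mapped from the sample labels. Per cell line, the authors deposited 1 table of TPM values by gene, from Trizol-extracted RNA. The submitters' processing notes name FastQC 0.11.2, Trimmomatic 0.36, HISAT2 2.0, bedtools 2.26.0 and GRCh38; the quantification tool, annotation and strand setting are not given in the sources used here. TPM keeps no counts, so depth is unknown. No column of values was left unused (0 columns). Of 58174 identifiers, 57392 could be given a symbol and 57836 were in GENCODE release 29, whose GRCh38 positions, exons and longest transcripts were used.

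Values were transformed to log2(TPM + 1), which understates changes of low genes, and tested by limma (version 3.58.1, R 4.3.3), using lmFit and a trended eBayes. Genes entered if 3 or more libraries had 1 TPM or more. Fits were made within each line, and over all 12 libraries for the interaction. A gene was called where its adjusted p (Benjamini-Hochberg) was under 0.05 and its change was 1 log2 unit or more. Tests were checked on simulated data. Tables and figures were made with Python 3.11.15, pandas 2.3.3, scipy 1.17.1 and matplotlib 3.10.9. The alternatives were pseudocounts of 0.1 and 0.01, no filter, median-ratio scaling, only genes whose mean reached 10 TPM, TPM without mitochondrially encoded genes, a replicate block, eBayes without trend, no fold threshold and leaving out each library; removal of the transcript length trend was added after seeing the data.

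The 50 genes, the 10 pathway lists and the markers were chosen with earlier results of these data known. By the naming rule, values in every library are given for the 5 genes of largest fall and the 3 of smallest change in each line, genes called higher or in neither line, genes called by the interaction, and 30 chosen for their function; the 2 called genes of largest size are named for each pathway list and line. Exons of 18 of the 50 genes overlap another gene's, 15 of them on the opposite strand, and their reads cannot be told apart where counting ignored strand. Promoter windows are RefSeq's on GRCh38.p14, and the largest count over a gene's windows was used. Ratios within libraries were also taken of AURKB to INCENP, NDC80 to NUF2, SPC24 to SPC25, MYBL2 to CCNB1 and AURKB to AURKA. Groups overlapped for NDC80 to NUF2 in both lines, for AURKB to INCENP in U118 alone, and for the rest of these in U87 alone.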

Additional observations from a re-analysis of the deposited data

Results flagged for a closer look

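For 5 of the 50 genes the change in U118 differed from that in U87 by the interaction test in limma, with a Benjamini-Hochberg adjusted p over 16382 genes. The change in U118 minus that in U87 was 3.42 on the log2 scale for MYBL2, 1.16 for AURKB and 1.04 for PTTG1. It was -1.65 for TTK and -1.15 for TOP2A. The adjusted p was 1.89e-07 for MYBL2, 0.00169 for AURKB, 0.00753 for PTTG1, 0.0190 for TTK and 0.0472 for TOP2A. All 3 libraries of the resistant group stood below the sensitive ones in U87 and above them in U118 for MYBL2. The libraries labelled U118 resistant expressed 37 of 44 genes that were high in U87 sensitive and near 0 in U118 sensitive libraries. They also expressed 14 of 110 genes of the opposite pattern. A difference between the lines and a difference between the labels therefore cannot be told apart in any of these values.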

How the results depend on the processing

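In U87 the count of genes called lower (35) stayed between 27 and 42 under every alternative with all libraries, and between 29 and 43 without 1 library. In each of these fits no gene of the set was called higher in U87 and every one tested stayed below 0, with 43 tested where the mean had to reach 10 TPM. In U118 the count called lower (38) was 16 under median-ratio scaling, 25 without mitochondrially encoded genes and 17 with the transcript length trend removed, and 32 to 40 without 1 library. The U118 median relative to all genes was -1.16 with no filter, where many genes near 0 enter the median. The interaction's lower calls (2) fell to 1 under pseudocounts of 0.1 and 0.01, no filter, median-ratio scaling and removal of the length trend, and ranged from 0 (without U87 sensitive 3) to 5 (without U87 sensitive 2) without 1 library; its higher calls (3) were 6 under median-ratio scaling and 5 with the length trend removed, and 2 to 4 without 1 library. In U118, the sign turned under median-ratio scaling for AURKB (0.24), PTTG1 (0.53), SPC24 (0.23) and FOXM1 (0.45). It also turned for PTTG1 (0.17) and FOXM1 (0.092) without mitochondrially encoded genes, and for PTTG1 (0.21), SPC24 (0.045) and FOXM1 (0.42) with the length trend removed. Without 1 library PTTG1 ranged from -0.28 to 0.16 and FOXM1 from -0.36 to 0.33; PTTG1 turned without the library labelled resistant 2 or 3 (0.16 and 0.03) and FOXM1 without sensitive 3 or the library labelled resistant 1 (0.33 and 0.01). None of the genes that turned was called in U118, and the cause was not tested. Of the called genes, 26 of 35 in U87 and 31 of 39 in U118 kept their call in every fit without 1 library. With the replicate number as a block, 34 genes were called lower in U87 and 38 in U118, and 2 lower and 3 higher in the interaction. Sensitive and resistant libraries were also correlated on the departures of genes from their group means, not on levels. For levels, Spearman's rho between these groups was 0.889 to 0.895 in U87 and 0.829 to 0.850 in U118. Correlations of the departures in same-numbered libraries were -0.067 to 0.011 in U87 and 0.051 to 0.139 in U118. Those of differently numbered libraries were -0.058 to 0.077 in U87 and -0.108 to 0.040 in U118. All were small, but in U118 every same-numbered value was above every other. Whether the number pairs libraries was not tested.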
